A study of Mus musculus with 15 samples.

Results

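The genes described here are 36 components and transcriptional targets of the p53 pathway, chosen by symbol from a fixed list, of 55359 genes measured in mouse hematopoietic progenitors. All 36 were found, each under 1 symbol, and 35 had enough counts to be tested. The exception was Tnfrsf10b, a death receptor of the TRAIL ligand, which lay between 0.0 and 0.2 CPM (counts scaled to each library's TMM-adjusted total). The cells come from fetal liver and were immortalized with Hoxb8, which holds myeloid progenitors in a dividing state while estradiol is in the medium. They were kept with retrovirus for 2 days and sorted for the GFP that the virus carries. The 15 libraries form 5 groups of 3.

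One group, WT empty, is the line with both copies of Ddx41 (hi-Ddx41+/+) with a virus without insert. The other 4 groups are the heterozygous knockout line (hi-Ddx41+/-) with the virus without insert (Het empty), with wild-type DDX41 (Het DDX41), or with DDX41 carrying the human disease substitutions G173R (Het G173R) or R525H (Het R525H). All 5 groups share the Hoxb8 construct, estradiol, infection and the GFP sort, and each Ddx41 genotype is represented by 1 line, so genotype and line cannot be told apart. The labels do not say whether the 3 libraries of a group were separate cultures. The p-values therefore measure only how these samples spread, and that spread may be technical. Groups follow the sample titles. The 12 deposited tables of the heterozygous line carry another code in their names than the titles do, and for 6 of them it is the code that the titles give to another group, so the comparisons between vectors rest on the titles being right.

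DDX41 is a DEAD-box RNA helicase whose inherited variants predispose to myeloid malignancy. p53, encoded by Trp53 (ENSMUSG00000059552), is a transcription factor held low by the ubiquitin ligase Mdm2 (ENSMUSG00000020184) and its partner Mdm4; stress signals release it, and it then switches on genes that stop the cell cycle, repair DNA, adjust metabolism or start apoptosis. Because p53 is controlled mainly through the stability of its protein, the level of its mRNA does not report its activity, whereas the mRNAs of its targets are commonly read for that purpose. Mdm2 is itself a p53 target, which closes a negative feedback loop, and in blood progenitors loss of p53 function is a known feature of malignant clones.

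Library totals ran from 22104066 to 49145873 expected counts. Ddx41 was at 58.8, 63.4 and 55.6 CPM in WT empty against 29.4, 33.0 and 28.7 in Het empty, a log2 difference of -0.97 (SE 0.11, edgeR adjusted p = 0.000138), and between 27.8 and 36.9 CPM in the libraries with a DDX41 insert. No rise of Ddx41 was therefore called with the insert (Het DDX41 against Het empty 0.13, adjusted p = 1.0), and no source used here says whether reads of the insert would be counted as Ddx41. Of the 10 progenitor markers checked 9 had enough counts to be tested, among them Kit, Cd34 and Myb, and Cd48 was practically absent, with a highest level of 0.104 CPM. Of 8 hepatocyte and stromal markers 5 (Alb, Apoa1, Ttr, Col1a1 and Cdh5) stayed below 0.1 CPM in all libraries. The other 3, Afp, Col1a2 and Pdgfrb, had enough counts to be tested. This list summed to 93.8 to 107 CPM in WT empty and 70.5 to 83.8 in the heterozygous libraries, so such transcripts were not absent. The 5 libraries numbered 3 in the titles stood apart from those numbered 1 and 2 in every group; counts that move when they are left out are given both ways.

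p53 binds DNA as a tetramer at pairs of 10-letter half-sites. The RefSeq promoter table (GRCm38.p6) held a window for 28 of the 36 members, 41 windows in all, each read here as the 250 bases before an annotated start. Pairs of p53 consensus half-sites were searched on these windows with at most 2 mismatches over the 20 letters, a spacer of at most 13 bases and the core C and G of each half-site required; the motif reads the same on both strands. A pair was found in the windows of 5 members, 12.2% of the members' windows, against 3.34% of all 32851 windows in the table. These 5 are printed because they tie a printed sequence to members whose levels are followed below. Capitals mark the pair with the fewest mismatches whatever its spacer, and the first such pair where several tied.
Cdkn1a (chr17:29090729-29090978, plus strand): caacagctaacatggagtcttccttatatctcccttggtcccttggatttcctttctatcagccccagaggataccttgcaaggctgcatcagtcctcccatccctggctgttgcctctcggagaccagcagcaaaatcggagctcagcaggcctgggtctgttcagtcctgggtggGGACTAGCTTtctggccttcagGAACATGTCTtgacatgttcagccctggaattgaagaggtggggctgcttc
Ccng1 (chr11:40755287-40755536, minus strand): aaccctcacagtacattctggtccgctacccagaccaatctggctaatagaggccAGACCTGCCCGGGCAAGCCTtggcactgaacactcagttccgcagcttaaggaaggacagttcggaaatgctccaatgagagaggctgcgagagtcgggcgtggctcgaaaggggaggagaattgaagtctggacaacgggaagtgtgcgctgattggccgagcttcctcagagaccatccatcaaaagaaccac
Sesn1 (chr10:41887189-41887438, plus strand): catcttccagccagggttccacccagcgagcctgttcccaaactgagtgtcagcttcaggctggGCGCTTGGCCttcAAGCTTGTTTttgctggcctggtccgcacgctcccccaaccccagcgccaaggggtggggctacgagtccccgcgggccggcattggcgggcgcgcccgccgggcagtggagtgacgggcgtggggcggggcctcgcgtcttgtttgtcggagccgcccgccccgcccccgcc
Bax (chr7:45466899-45467148, minus strand): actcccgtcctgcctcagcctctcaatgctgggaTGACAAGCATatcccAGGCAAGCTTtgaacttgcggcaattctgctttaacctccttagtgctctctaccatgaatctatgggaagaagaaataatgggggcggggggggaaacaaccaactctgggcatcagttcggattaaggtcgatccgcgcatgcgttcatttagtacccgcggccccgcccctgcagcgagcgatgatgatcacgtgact
Ckap2 (chr8:22185820-22186069, minus strand): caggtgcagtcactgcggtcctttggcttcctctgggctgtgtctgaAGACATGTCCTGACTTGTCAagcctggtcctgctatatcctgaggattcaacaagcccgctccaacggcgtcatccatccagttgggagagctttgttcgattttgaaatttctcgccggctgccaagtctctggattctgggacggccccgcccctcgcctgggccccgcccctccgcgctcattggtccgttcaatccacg

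Each printed window held more than 1 pair within these limits. The Cdkn1a pair in capitals had 0 mismatches with a spacer of 12 bases and lay 73 to 42 bases before a start. That start is 2790 bases upstream of the other annotated start of the gene, whose own window held none. The printed Cdkn1a window held 2 pairs. In the other pair, the half-site GAACATGTCT was followed without spacer by tgacatgttc, with 1 mismatch. The Ccng1 pair had 1 mismatch and no spacer. The pairs of Bax, Ckap2 and Sesn1 had 2 mismatches, with spacers of 5, 0 and 3 bases. Such a match is a description of the letters and not a bound site, and a window without one, such as those of Mdm2 and Plk2, says only that no such pair lies in these 250 bases.

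Levels of different genes are compared on the TPM scale, which corrects for transcript length. Over the 15 libraries the highest members were Bax, the pore-forming executor of mitochondrial apoptosis (mean 153 TPM), Ccng1, the cyclin G1 gene (94.2), Trp53 itself (69.5), Mdm2 (54.6) and Cdkn1a, which encodes the cyclin-dependent kinase inhibitor p21 (39.3). Mdm4 (33.4), Aen (31.6) and Ei24 (31.0) followed. At the other end were Btg2 (1.35), Eda2r (0.0747) and Tnfrsf10b (0.014). Eda2r, an ectodysplasin receptor, was at 0 counts in 2 libraries and near the limit of 3 counts (0.061 to 0.136 CPM) in others, and its differences are the least certain.

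**Figure D1:**
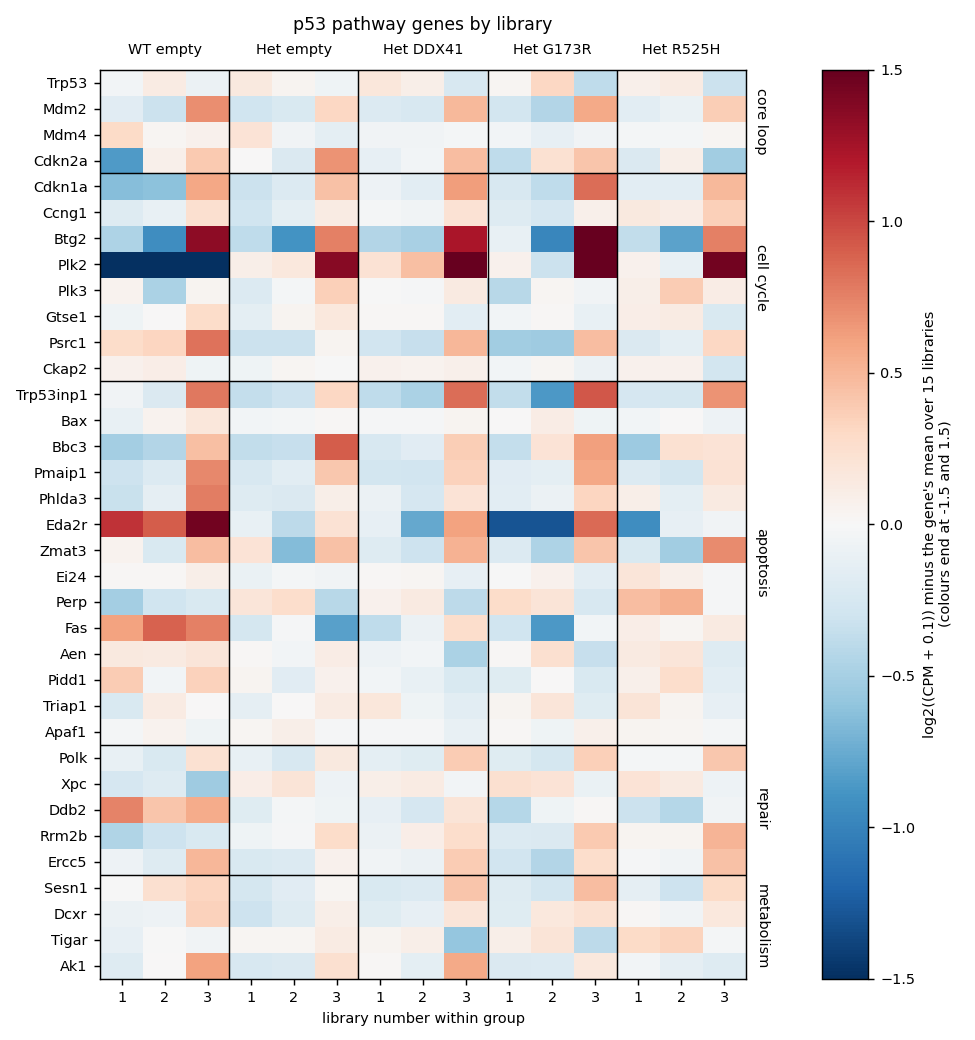
Heat map of the 35 tested members (vertical axis, grouped by role) in the 15 libraries (horizontal axis, numbered within each group); colour is log2(CPM + 0.1) minus the gene's mean over the 15 libraries. In each group the third column is red for Mdm2, Cdkn1a, Btg2, Trp53inp1 and Pmaip1, and Plk2 is blue in the 3 WT empty libraries.

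Het empty and WT empty carry the same virus and differ in the line, with 1 or 2 intact copies of Ddx41. Of the 35 members tested, 3 were called at an edgeR adjusted p under 0.05: Plk2 was higher, and Fas and Ddb2 were lower, in Het empty. That is 8.57% of the members, where 3.66% of all genes were called (1.9% higher and 1.75% lower). Neither of the targets most often used as a readout of p53 was among the 3: Cdkn1a differed by 0.12 on the log2 scale (95% interval -0.72 to 0.95) and Mdm2 by -0.18 (-0.87 to 0.5). The median log2 difference of the members was -0.09, against -0.001 for all genes tested, and lay between -0.17 and 0.05 when 1 library was left out. In the same fits the Cdkn1a difference ran from -0.16 to 0.65, so its direction depended on single libraries. Of the 35 members 4 were higher and 6 lower in Het empty without overlap between the groups, where 8.33% of all genes were higher and 8.82% lower in that way.

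Plk2 (ENSMUSG00000021701) encodes a polo-like kinase that acts in centriole duplication and stress responses. It was at 1.57, 1.69 and 3.09 CPM in WT empty and at 11.5, 12.1 and 28 in Het empty. The groups did not overlap, and within each the third library was the highest. The log2 difference was 3.02 (SE 0.70, edgeR adjusted p = 0.0262), an 8.09-fold higher level. In the other heterozygous groups Plk2 was at 12.6, 14.9 and 43.0 CPM with DDX41, 11.3, 8.63 and 35.9 with G173R and 11.3, 9.99 and 29.8 with R525H. Every heterozygous library was thus above every wild-type library, whichever insert it carried.

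Fas (ENSMUSG00000024778), the death receptor that starts extrinsic apoptosis, was at 10.7, 13 and 11.9 CPM in WT empty and at 5.82, 6.92 and 3.94 in Het empty. All 3 wild-type libraries were higher, by a log2 difference of -1.09 for Het empty (SE 0.23, edgeR adjusted p = 0.0155). It lay at 5.33, 6.58 and 8.4 CPM in Het DDX41, 5.66, 3.82 and 6.79 in Het G173R and 7.52, 7.13 and 7.67 in Het R525H. None of these reached the lowest wild-type library.

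Ddb2 (ENSMUSG00000002109) and Xpc (ENSMUSG00000030094) encode the damage sensors of global genome nucleotide excision repair, the pathway that removes ultraviolet lesions, and they differed in opposite directions. Ddb2 was at 7.73, 6.15 and 6.78 CPM in WT empty and at 4.03, 4.5 and 4.37 in Het empty, and its log2 difference was -0.68 (SE 0.17, edgeR adjusted p = 0.044). Xpc was at 53.2, 55.1 and 43.5 CPM in WT empty and 67.7, 72.3 and 60.2 in Het empty, without overlap, but its difference of 0.40 (SE 0.12) had an adjusted p of 0.0952. Of the 15 libraries, all 12 heterozygous ones were below the wild-type ones for Ddb2 (3.38 to 5.25 CPM, median 4.29) and above them for Xpc (58.8 to 74.5, median 68.3).

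**Figure D2:**
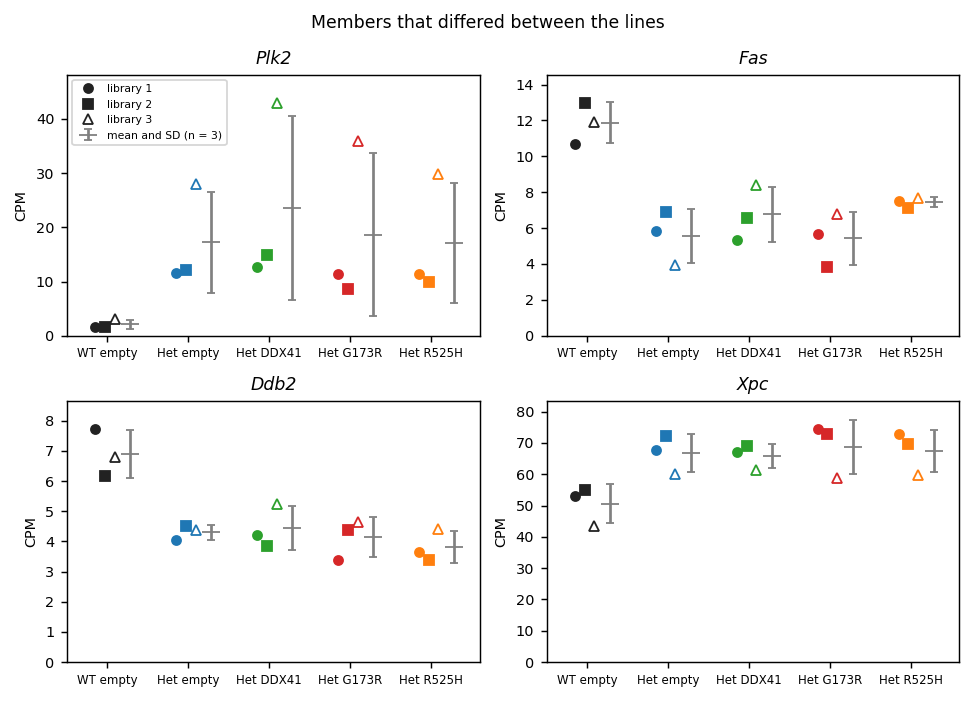
CPM (vertical axis, from 0) of Plk2, Fas, Ddb2 and Xpc in each library of the 5 groups (horizontal axis); symbols give the library number, and grey bars the mean and SD of 3 libraries. For Plk2 and Xpc every heterozygous library lies above the 3 WT empty libraries, and for Fas and Ddb2 every one lies below them.

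The mean of the 4 heterozygous groups was then set against WT empty; it shares its WT empty and Het empty libraries with the comparison above and so adds only the 3 groups with an insert. Of the 35 members 4 were called, 11.4%, against 7.67% of all genes (3.46% higher and 4.21% lower). The members' median was -0.08, and 0.09 without WT empty 3, where that of all genes was -0.006. Plk2 differed by 3.15 (SE 0.64, adjusted p = 0.00647), Fas by -0.92 (SE 0.17, 0.00341), Ddb2 by -0.73 (SE 0.13, 0.00243) and Xpc by 0.41 (SE 0.10, 0.016), all by edgeR. Without overlap 3 members were higher and 3 lower (3.44% and 3.92% of all genes). Beside the called ones, all 12 heterozygous libraries were above WT empty for Rrm2b, a ribonucleotide reductase subunit used in DNA repair (12.6 to 21 against 10.7, 11.8 and 12.5 CPM), and below it for Eda2r, but neither was called (adjusted p = 0.107 and 0.12). An F test for any difference among the 5 groups called 2 members, Fas (adjusted p = 0.0385) and Ddb2 (0.0391), where 3.7% of all genes were called. DESeq2 called 4 members in it (7.93% of all genes), and the replicate block and the removal of the libraries numbered 3 called 8 each (12.1% and 7.36%).

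The core loop showed no called difference between the lines. Trp53 was at 116, 130 and 112 CPM in WT empty and 132, 123 and 114 in Het empty, with overlap. Mdm4 was at 215, 180 and 184 CPM against 202, 169 and 159, and Cdkn2a, whose locus encodes the Mdm2 inhibitor p19Arf and the kinase inhibitor p16 and is counted here as 1 gene, at 1.57, 3.07 and 3.84 against 2.91, 2.48 and 4.71. Mdm2 was at 122, 110 and 223 CPM against 112, 118 and 171. In all 4 genes the ranges of the lines overlapped, and the log2 differences lay between -0.18 and 0.25.

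Among the cell cycle members 1 of 8 was called between these lines, Plk2, where 3.66% of all genes were called. Ccng1 was at 300, 316 and 404 CPM in WT empty and 278, 309 and 372 in Het empty, and Cdkn1a at 42.6, 43.3 and 99.6 against 53.2, 57.6 and 90.3. Both genes overlapped between the lines, and the third library of each group was its highest. Among the apoptosis members 1 of 14 was called, Fas, while Bax was at 101, 114 and 123 CPM against 106, 107 and 111. Aen, a nuclease that degrades DNA in apoptosis, was at 74.7, 73.9 and 76.2 against 67.9, 65.6 and 72.8 CPM without overlap, a difference of -0.12 (adjusted p = 0.905). Of the 5 repair members Ddb2 was called, and none of the 4 metabolic members was: Sesn1, a sestrin that restrains mTORC1, was at 20.1, 24.0 and 25.4 CPM against 16.9, 18.0 and 20.7, and Dcxr, a carbonyl reductase of sugar metabolism, at 8.49, 8.53 and 11.5 against 7.23, 7.87 and 9.61.

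The replicate numbers pair the libraries of this comparison by the check described with the processing, and the number of called members depended on how the third libraries were treated. With the number as a block, 6 members were called (9.29% of all genes): Xpc (0.40, adjusted p = 0.000223), Psrc1, a microtubule-binding protein (-0.68, 0.00132), and Rrm2b (0.40, 0.0178) joined Plk2, Fas and Ddb2. Without the 5 libraries numbered 3, 7 members were called (7.4% of all genes), the same 3 with Xpc, Psrc1, Cdkn1a (0.37, adjusted p = 0.00886) and Perp, a desmosome protein linked to apoptosis (0.64, 0.00113). For the mean of the heterozygous groups both settings called 10 members (17.5% and 14.5% of all genes). Cdkn1a is among the members called under both settings there, at 0.28 (adjusted p = 0.043) and 0.42 (0.000675), and it was called in no other setting run.

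Single libraries and the tool also decided calls. For Het empty against WT empty DESeq2 called 4 members, the 3 and Xpc (5.53% of all genes), and limma-voom called Fas and Ddb2 (3.63%). The Plk2 call was lost with limma-voom (2.94, adjusted p = 0.154) and without WT empty 1 (2.85, 0.139), WT empty 2 (2.88, 0.119), WT empty 3 (3.4, 0.0588) or Het empty 3 (2.47, 0.1), although the sign held in each. The Fas call was lost without WT empty 2 (-1.02, 0.0662), Het empty 1 (-1.12, 0.0539) or Het empty 3 (-0.89, 0.0647). The Ddb2 call was lost in 11 of 15 fits that each left out 1 library (-0.75 to -0.58, adjusted p 0.042 to 0.204 over all 15), with no filter on low counts (0.104) and with only these groups in the model (0.0736). In the mean of the heterozygous groups Plk2 was lost with limma-voom (2.97, 0.0603) and without WT empty 1 (2.98, 0.0537), and Xpc without WT empty 3 (0.31, 0.116).

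Markers of other blood cells differed between the lines in the same libraries, where 1.9% of all genes were higher in Het empty and 1.75% lower. Of 7 mast cell and basophil markers tested 4 were lower in Het empty, with summed levels of 211 to 293 CPM in WT empty and 172 to 188 in Het empty and Fcer1a below 0.1 CPM in all libraries. Of 8 monocyte markers 3 were higher and 3 lower, with sums of 469 to 575 and 268 to 289 CPM. Of 10 neutrophil markers 2 were higher and 1 lower, and 9 of the 10 had a positive log2 difference (median 1.21). Their sums were 211 to 316 and 146 to 234 CPM, of which Mmp8 had a mean of 177 CPM in WT empty and 23.2 in Het empty (SD 44.5 and 10, n = 3), while Prtn3 averaged 76.9 and 138 and Elane 2.41 and 11.6 CPM. Of 6 lymphoid markers 2 were lower (83.5 to 102 and 58.6 to 74.3), of 6 erythroid markers 1 was lower (8.01 to 12.2 and 4.26 to 5.52, with Hba-a1 below 0.1), of 9 progenitor markers 1 was higher and 1 lower (4050 to 4910 and 4060 to 5530), and of 3 stromal markers 1 was lower (93.8 to 107 and 73.6 to 78.3). In bulk RNA, fewer cells of a type and less RNA per cell cannot be told apart, and the part of these markers in the member differences was not tested.

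Re-expression of DDX41 or of its variants in the heterozygous line asks whether an insert shifts the pathway. No member was called in any of the 6 comparisons among the 4 heterozygous groups by edgeR, DESeq2 or limma-voom. The backgrounds were as low: by edgeR 0.0% of all genes were called for DDX41 against empty vector, G173R against empty vector, G173R against DDX41 and R525H against DDX41, 0.0137% (2 genes) for R525H against empty vector and 0.0825% (12 genes) for R525H against G173R. With DESeq2 the shares of all genes were 0.0206%, 0.0206% and 0.412% for DDX41, G173R and R525H against empty vector, 0.0275% and 0.241% for G173R and R525H against DDX41 and 0.818% for R525H against G173R. With limma-voom they were 0.0137% and 0.055% for R525H against empty vector and against G173R and 0.0% for the other 4. At an unadjusted p under 0.05, 1 member passed for R525H against empty vector and 1 for R525H against G173R, Ccng1 in both, and 0 in the other 4. Over all genes that number was 254, 88 and 725 for DDX41, G173R and R525H against empty vector, 224 and 581 for G173R and R525H against DDX41, and 930 for R525H against G173R. The 3 comparisons with empty vector share its libraries.

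The size of difference that the model with group only could have missed is given by its 95% intervals. Their median half-width over the members was 0.44 on the log2 scale, from 0.13 to 2.35. The library number is not in this model, so the departure of the third libraries enters the spread behind these intervals. For Trp53 the interval of DDX41 against empty vector was -0.38 to 0.33, of G173R -0.38 to 0.32 and of R525H -0.43 to 0.28. For Cdkn1a the same intervals were -0.67 to 1.01, -0.67 to 1.01 and -0.76 to 0.92, and for Mdm2 -0.59 to 0.78, -0.62 to 0.75 and -0.59 to 0.78. These intervals hold 0, but those of Cdkn1a and Mdm2 also hold differences of 0.75 in log2, so that the vectors act alike is not shown.

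Cdkn1a was at 63.2, 59.7 and 103 CPM in Het DDX41, 56.3, 51.1 and 119 in Het G173R and 59.7, 59.8 and 93.1 in Het R525H. Mdm2 was at 120, 117 and 193, at 114, 102 and 204 and at 123, 129 and 178 CPM in the same groups. In each group 2 libraries were close together and the third was the highest. Bax was at 108, 108 and 113 CPM in Het DDX41, 110, 118 and 105 in Het G173R and 106, 110 and 104 in Het R525H.

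Ccng1 was the member nearest to a difference between vectors. It was at 278, 309 and 372 CPM in Het empty, 334, 330 and 397 in Het DDX41, 299, 288 and 360 in Het G173R and 379, 369 and 437 in Het R525H. The R525H libraries were above all 3 G173R libraries, by 0.32 (SE 0.14, edgeR adjusted p = 0.715). They overlapped with empty vector through Het empty 3 (0.31, SE 0.14, adjusted p = 0.999). Ccng1 was not alone in this: 4 members were higher in R525H than in G173R without overlap, with Mdm4, Plk3 and Fas, and 0 were lower. The share of all genes without overlap was not computed for this comparison, so this count has no background beside it and says nothing of the members as a set. The numbers of R525H and G173R passed the pairing check, whose limit is given with the processing. With the number as a block Ccng1 was the only member called between these groups (0.33, adjusted p = 0.0105, where 0.969% of all genes were called). Without the third libraries its difference from G173R was 0.35 (adjusted p = 0.0619).

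**Figure D3:**
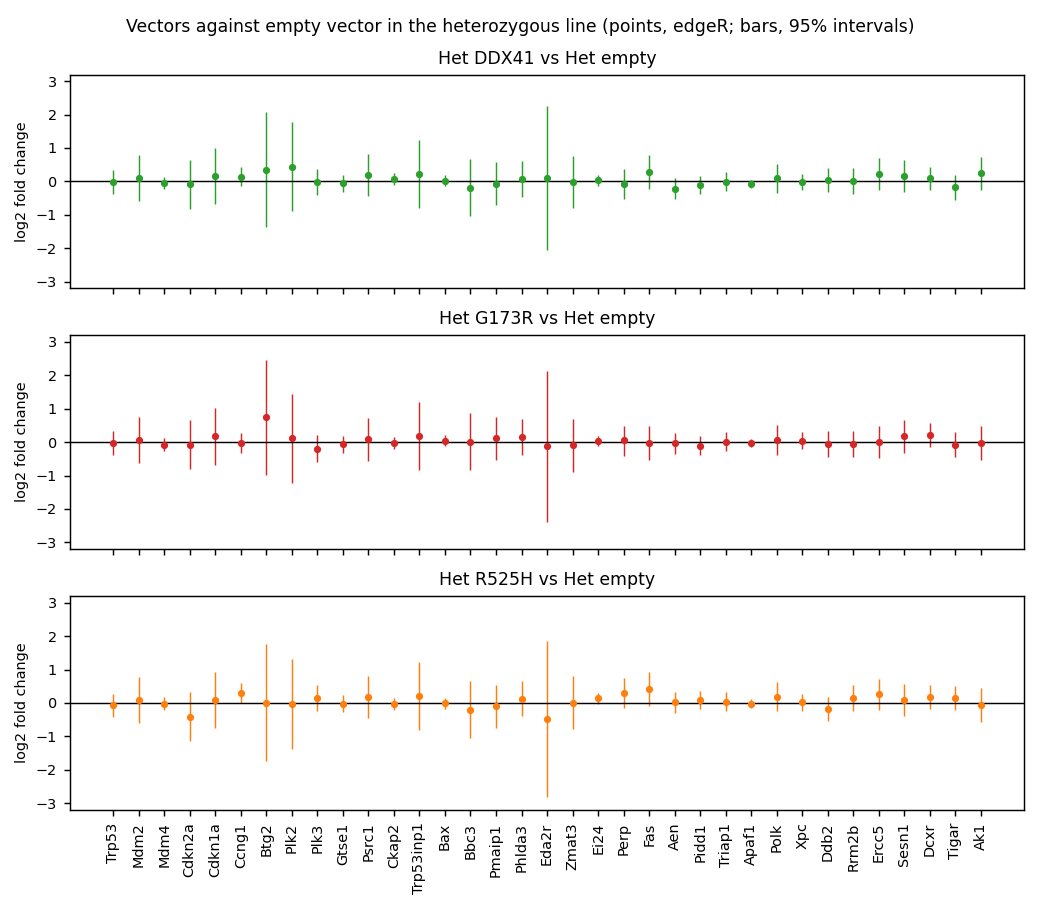
edgeR log2 fold change (vertical axis; points) and 95% interval (bars) of each tested member (horizontal axis) for DDX41, G173R and R525H against empty vector in the heterozygous line. The bars are short for Bax and Ei24, long for Btg2, Plk2 and Eda2r, and no member was called.

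In each group the titles number the libraries 1, 2 and 3, and the third stood apart for p53 targets. With group in the model, 24 of the 35 members differed between the libraries numbered 3 and those numbered 1 and 2 by edgeR, 19 higher and 5 lower. Over all genes 46.1% differed, 21.1% higher and 25.0% lower, against 54.3% of the members higher and 14.3% lower; the median log2 difference was 0.31 for the members and -0.003 for all genes. In all, 16 members, among them Mdm2 and Cdkn1a, were above both other libraries in 5 of 5 groups, and Trp53 and Xpc were below both in 5 of 5. The share of all genes that did so was not computed, so these counts have no background beside them.

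What the number marks is not given in the sources used here. Libraries that share a number may share a culture, day or preparation, in which case the 5 libraries numbered 3 are not independent of each other and the p-values describe these libraries only. Between the libraries numbered 2 and 1, 0 members and 0.0% of all genes were called by edgeR, with 2 members and 1579 genes at an unadjusted p under 0.05. An F test over the 3 numbers called 20 members, with 41.9% of all genes. The libraries numbered 3 held 22104066 to 37109795 counts against 27743681 to 49145873 in the others, and mitochondrial genes took 2.16 to 2.91% of counts against 2.28 to 2.99%.

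In the core loop the direction of Trp53 and of its feedback gene differed. Trp53 was at 112, 114, 101, 91.1 and 94.9 CPM in the third libraries of WT empty, Het empty, Het DDX41, Het G173R and Het R525H, and at 116 to 148 (median 129) in the other 10. It was lower in every library numbered 3, by -0.33 (SE 0.06, edgeR adjusted p = 0.000849). Mdm2 was at 223, 171, 193, 204 and 178 CPM in the same libraries and at 102 to 129 (median 117) in the others. It was higher in every library numbered 3, by 0.73 (SE 0.06, adjusted p = 8.33e-07). Mdm4 did not pass the test (-0.04, adjusted p = 0.512), with 215, 180 and 184 CPM in WT empty and 159 to 202 in the heterozygous libraries. Cdkn2a was called at 0.47 (adjusted p = 0.0375), but library 3 was below the others in Het R525H (2.48, 3.1 and 2.0 CPM), and its call was lost in 8 of 15 fits without 1 library.

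**Figure D4:**
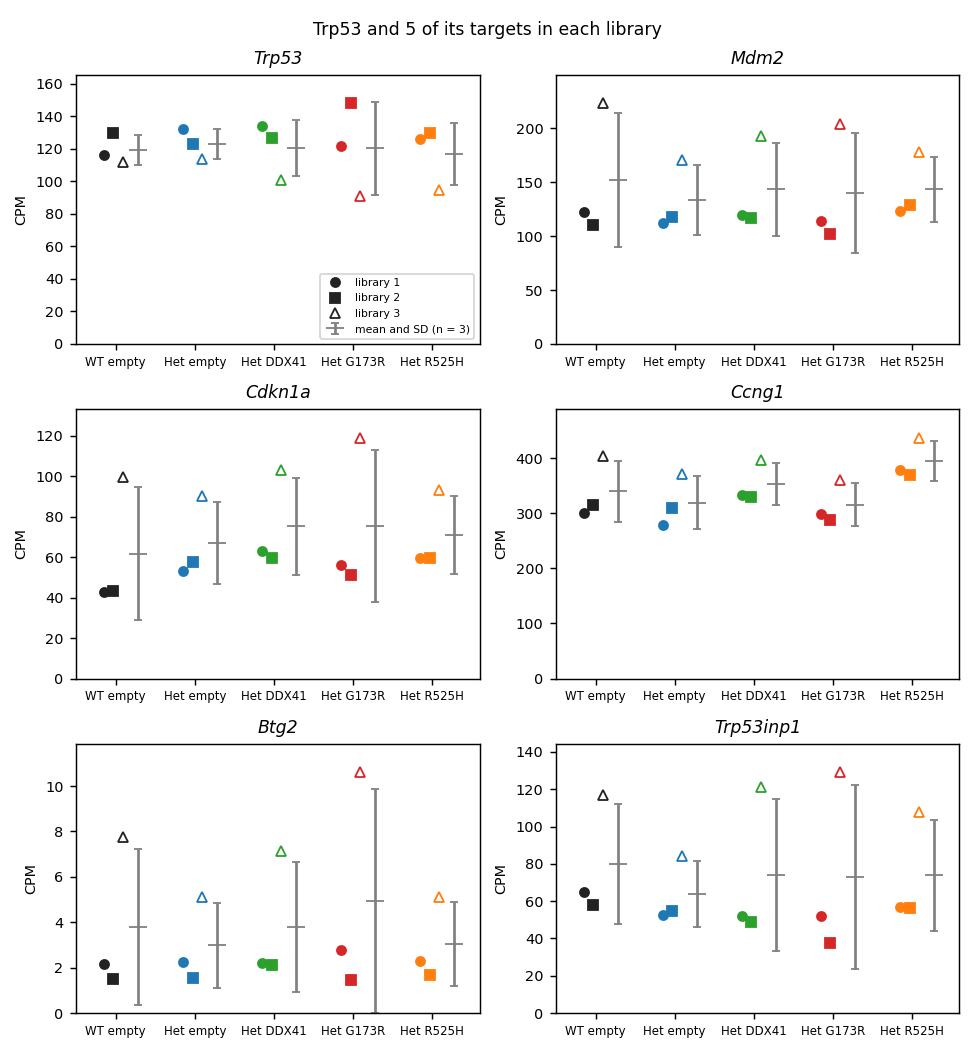
CPM (vertical axis, from 0) of Trp53, Mdm2, Cdkn1a, Ccng1, Btg2 and Trp53inp1 in each library of the 5 groups (horizontal axis); open triangles are the third libraries, and grey bars the mean and SD of 3 libraries. The triangle is the lowest point of each group for Trp53 and the highest for the other 5 genes.

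Of the 8 cell cycle members 5 rose in the third libraries and none fell (62.5% and 0.0%, against 21.1% and 25.0% of all genes). Cdkn1a (ENSMUSG00000023067) was at 99.6, 90.3, 103, 119 and 93.1 CPM in the third libraries, in the order of groups given above, and at 42.6 to 63.2 (median 56.9) in the others. No value overlapped, and the difference was 0.90 (SE 0.07, edgeR adjusted p = 7.59e-07). Btg2, an antiproliferative cofactor of mRNA decay, was at 7.74, 5.12, 7.12, 10.6 and 5.13 CPM against 1.47 to 2.76 (median 2.12), a difference of 1.82 (SE 0.14) and the largest among the members. Plk2 rose by 1.49 (SE 0.10) over the 5 groups. On the log2(CPM + 0.1) scale its step was 0.88 in WT empty and 1.24 to 1.84 in the heterozygous groups, from 1.57 and 1.69 to 3.09 CPM in WT empty and from 8.63 to 14.9 to between 28 and 43.0 in the heterozygous groups.

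Psrc1 rose by 0.64 (SE 0.08), with 23.8, 13.9, 19.1, 18.7 and 16.8 CPM in the third libraries and 9.35 to 16.9 (median 11) in the others. Ccng1 rose by 0.30 (SE 0.04), with 404, 372, 397, 360 and 437 CPM against 278 to 379 (median 313), so the ranges overlap although library 3 was the highest in each group. Plk3, a stress-activated kinase (0.18), Gtse1, which moves p53 out of the nucleus (-0.01), and Ckap2, a spindle protein (-0.10), were not called. Of the 5 members with a printed promoter pair, Cdkn1a, Ccng1 and Sesn1 rose, and Bax and Ckap2 were not called. Ckap2 was at 56.2 to 71.3 CPM in the third libraries and 64.8 to 72.5 in the others.

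Of the 14 apoptosis members tested 6 rose and 2 fell (42.9% and 14.3%, against 21.1% and 25.0% of all genes). Their median log2 difference was 0.07. Trp53inp1, a p53 cofactor in stress and autophagy, was at 117, 84.2, 121, 129 and 108 CPM in the third libraries and at 37.3 to 65.1 (median 53.6) in the others, a difference of 1.07 (SE 0.09, edgeR adjusted p = 1.61e-06) without overlap. The BH3-only genes Pmaip1 (Noxa) and Bbc3 (Puma), which trigger Bax, both rose. Pmaip1 was at 95.6, 76.8, 73.6, 87.0 and 67.6 CPM against 46.7 to 52.5 (median 49.7), a difference of 0.68 (SE 0.06). Bbc3 was at 6.65, 9.15, 6.28, 7.44 and 5.58 against 3.27 to 5.68 (median 3.76), a difference of 0.79 (SE 0.13), and overlapped through the R525H libraries.

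Zmat3, an RNA-binding p53 effector, was at 21.8, 21.5, 22.7, 21.2 and 25.8 CPM against 10 to 18.2 (median 13.5), a difference of 0.76 (SE 0.09). Phlda3, an inhibitor of Akt, was at 15.3, 9.52, 10.3, 11.2 and 9.85 against 7.08 to 9.54 (median 8.01), a difference of 0.47 (SE 0.10). The call for Eda2r (1.39, SE 0.52, adjusted p = 0.0407) rests on 0.136 to 0.571 CPM in the third libraries and 0.0 to 0.422 in the others, and it was lost in 9 of 15 fits without 1 library. Bax did not pass the test: it was at 123, 111, 113, 105 and 104 CPM against 101 to 118 (median 108), a difference of 0.03 (95% interval -0.06 to 0.12). Apaf1, the apoptosome scaffold, differed by -0.04 (-0.12 to 0.03), and Fas by 0.11 (-0.21 to 0.42).

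The 2 apoptosis members that fell were Perp and Aen. Perp fell by 0.39 on the log2 scale (SE 0.09, adjusted p = 0.00351), with 17.5, 15.4, 15.6, 17.3 and 20.2 CPM against 14.4 to 29.8 (median 23.4). Aen fell by 0.21 (SE 0.08, adjusted p = 0.0388), with 76.2, 72.8, 48.5, 52.9 and 58.8 against 63.8 to 79.3 (median 71.1). In WT empty and Het empty the third library was instead the highest for Aen, and the call was lost in 10 of 15 fits without 1 library, down to -0.12 (adjusted p = 0.282) without Het DDX41 3. Ei24, Pidd1 and Triap1 were not called (-0.10 to -0.06).

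Of the 5 repair members 3 rose and 1 fell. Polk, a translesion polymerase, was at 49.7, 47.0, 55.0, 54.3 and 56.2 CPM against 35.3 to 41.6 (median 37.8), a difference of 0.46 (SE 0.04). Ercc5, the incision nuclease XPG, was at 42.6, 31.5, 39.1, 36 and 40.8 against 22.1 to 29.7 (median 27.2), a difference of 0.50 (SE 0.05). Neither overlapped. Rrm2b rose by 0.37 (SE 0.06), with 12.5, 17.8, 17.6, 19.4 and 21 CPM against 10.7 to 15.7 (median 13.9). Xpc fell by 0.25 on the log2 scale (SE 0.04, adjusted p = 0.000142), with 43.5, 60.2, 61.4, 58.8 and 59.9 against 53.2 to 74.5 (median 69.4), and Ddb2 was not called (0.19, adjusted p = 0.143).

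All 4 metabolic members were called, 3 higher and 1 lower (75.0% and 25.0%, against 21.1% and 25.0% of all genes). Sesn1 rose by 0.46 (SE 0.07), with 25.4, 20.7, 27.1, 28 and 24.7 CPM against 16.3 to 24.0 (median 17.7), and Dcxr by 0.31 (SE 0.07), with 11.5, 9.61, 10.2, 10.6 and 10.1 against 7.23 to 10.1 (median 8.36). Ak1, an adenylate kinase, rose by 0.44 (SE 0.10), with 10.9, 8.5, 10.7, 7.98 and 6.26 against 6.05 to 7.27 (median 6.33). Library 3 was the highest in 4 groups and the lowest in Het R525H, where the values were 6.94, 6.51 and 6.26 CPM. Tigar, a phosphatase that slows glycolysis, fell by 0.27 on the log2 scale (SE 0.09, adjusted p = 0.0214), with 19.9, 22.5, 13.8, 15.7 and 20.2 CPM against 19.0 to 26.1 (median 21.5). Its call was lost without Het DDX41 3 (-0.14, adjusted p = 0.2), Het G173R 3 (-0.21, 0.102) or Het R525H 3 (-0.25, 0.0708).

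**Figure D5:**
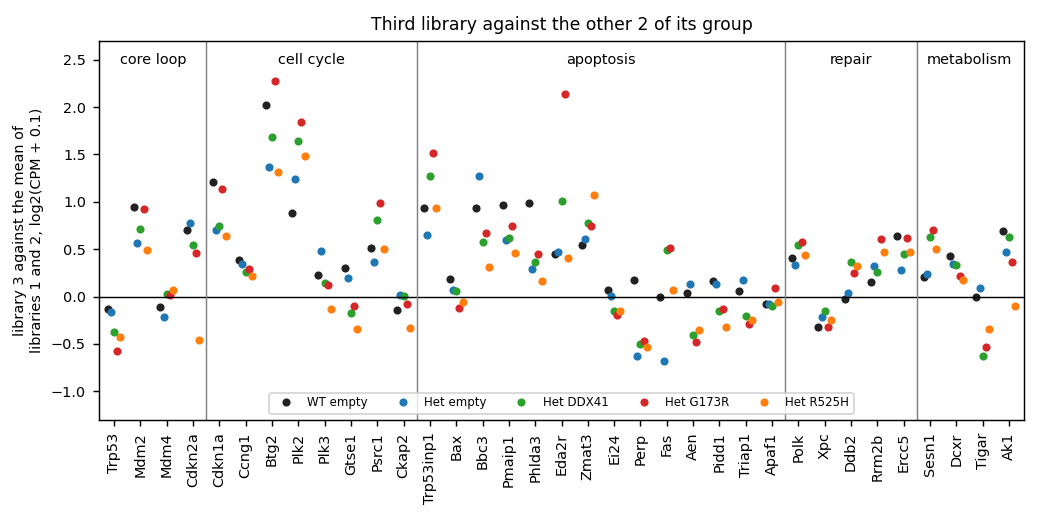
For each tested member (horizontal axis, grouped by role), the third library minus the mean of the first and second on the log2(CPM + 0.1) scale (vertical axis), 1 point for each of the 5 groups. All 5 points lie above 0 for Mdm2 (0.49 to 0.95) and Cdkn1a (0.64 to 1.21) and below it for Trp53 (-0.57 to -0.13).

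Without overlap between all 5 libraries numbered 3 and all 10 others were 8 members that were higher, namely Mdm2, Cdkn1a, Btg2, Trp53inp1, Pmaip1, Zmat3, Polk and Ercc5, and 1 that was lower, Trp53. Over all genes 4.47% were higher and 6.63% lower without overlap. Leaving out 1 library at a time gave 20 to 24 called members, of which 17 to 19 were higher, and 5008 to 6943 called genes in all. The same 24 members were called by DESeq2 and by limma-voom, where 46.0% and 45.9% of all genes were called.

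Other pathway genes were read from 3 lists that were also chosen with earlier results of these data known. Of 21 upstream regulators of p53 tested 12 were called, 4 higher and 8 lower (19.0% and 38.1%, against 21.1% and 25.0% of all genes), with a median log2 difference of -0.03. The checkpoint kinase gene Chek2 was at 34.8, 32.3, 32.7, 33.7 and 33.6 CPM in the third libraries and fell by 0.35 in log2 (adjusted p = 1.04e-05 by edgeR) without overlap. Of 39 further p53 targets and cell death or cell cycle effectors 26 were called, 12 higher and 14 lower (30.8% and 35.9%, against the same 21.1% and 25.0%), with a median of 0.07. In all, 57.1% and 66.7% of these lists were called, where 46.1% of all genes were. The BH3-only gene Bcl2l11 (Bim) was at 19.9, 21, 23.5, 27.9 and 23.7 CPM and rose by 0.57 (adjusted p = 4.68e-06), and the survival gene Mcl1 rose by 0.26 (1.47e-05). In contrast Trp53i11 fell by 0.55 on the log2 scale (7.09e-06), Ccnd1, the cyclin D1 gene, by 0.45 (1.64e-05) and Bid, a further trigger of Bax, by 0.38 (1.9e-05). Gdf15, a secreted stress factor chosen here after its values were seen, was at 0.701, 0.589, 0.951, 0.71 and 0.681 CPM in the third libraries, and at 0.0281 to 0.218 in the others, some of which lie under the limit of 3 counts. It rose, and its fitted 2.56 (adjusted p = 0.000116) depends on the prior count at such levels.

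p53 lowers many cell cycle genes indirectly, through p21 and the DREAM repressor complex. The levels of 20 genes listed for this route were compared by library number. Whether the route itself acted here was not tested. The list also holds Lin54 and Lin9, which encode parts of the complex itself and were not called. Of the 20 genes, 11 were called in the third libraries, all 11 lower, where 25.0% of all genes were lower. The median of the list was -0.20, with a range of -0.39 to 0.03. Markers of other cells were also called by library number, where 21.1% of all genes were higher and 25.0% lower. Of 9 progenitor markers 6 were lower and 1 higher, with sums of 3630 to 4070 CPM in the third libraries and 4500 to 5570 in the others, and of 10 neutrophil markers 5 were lower and 2 higher (104 to 211 and 187 to 316).

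Of 7 mast cell markers 3 were lower and 1 higher (166 to 211 and 172 to 293 CPM), of 8 monocyte markers 3 were higher and 2 lower (286 to 575 and 268 to 533), and of 6 lymphoid markers 5 were higher (58.4 to 102 and 51.5 to 91.4). Of 6 erythroid markers 1 was higher (3.72 to 8.31 and 2.71 to 12.2) and of 3 stromal markers 1 was higher (73.9 to 104 and 70.5 to 107). In this order the shares called were 57.1%, 62.5%, 83.3%, 16.7% and 33.3%, against 46.1% of all genes. The part of cell composition in the rise of the p53 targets was not tested.

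Between the lines, 0 of the 21 upstream regulators and 0 of the 20 genes listed for DREAM were called by edgeR in Het empty against WT empty. In each list 1 gene was at an unadjusted p under 0.05. Of the 39 further targets and effectors 2 were called (5.13%, against 3.66% of all genes): Ccnd1 was lower and Ccnd2, the cyclin D2 gene, higher. Ccnd1 was at 42.5, 44.1 and 33.8 CPM in WT empty and 11.3, 12 and 8.59 in Het empty, a difference of -1.91 (SE 0.20, adjusted p = 4.24e-05). Ccnd2 was at 96.4, 95 and 110 CPM against 147, 119 and 140, a difference of 0.43 (SE 0.11, adjusted p = 0.0403). In the mean of the heterozygous groups Ccnd1 (-2.04), Sesn3, a further sestrin (0.88, adjusted p = 0.0167), and Bcl2, a survival gene (-0.34, 0.0112), were called. These 3 of 39 are 7.69% of the list, close to the 7.67% of all genes.

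Whether the third library departed from the others by the same amount in both lines was tested for every gene, a comparison added after the data were seen. Of the 35 members 1 was called, Perp, where 0.516% of all genes were. At an unadjusted p under 0.05 there were 10 members and 1650 of 14548 genes, and the members' median was -0.18 against -0.002 for all genes. In WT empty Perp was at 14.4, 16.6 and 17.5 CPM, with the third library highest, whereas in the heterozygous groups it was at 23.3, 24.7 and 15.4, at 21.4, 22.6 and 15.6, at 24.8, 23.5 and 17.3 and at 28.4, 29.8 and 20.2. Each library numbered 3 of the heterozygous line was the lowest of its group. The heterozygous departure minus the wild-type one was -0.71 in log2 (SE 0.12, adjusted p = 0.0401 by edgeR). For Cdkn1a and Mdm2 it differed by -0.40 (adjusted p = 0.137) and -0.27 (0.336), which did not pass the test.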

How the data were processed

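Total RNA of 15 libraries was sequenced with a stranded kit after ribosomal RNA removal, per the labels' protocols. The authors deposited 1 RSEM table per sample, per the submitters' processing notes. Which aligner, genome build and RSEM version they used is not given in the sources used here. The column named as the expected count, per the file headers, holds estimated counts that split reads matching several genes and are not normalized (6.26 to 6.92% of a library's genes were not whole). The deposited TPM, scaled by the authors for length and total, served only to compare genes; the FPKM that the authors deposited were not used.

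Expected counts were rounded and analysed with edgeR 4.0.16 (R 4.3.3). filterByExpr kept 14548 of 55359 genes, and TMM factors lay between 0.9687 and 1.057. A quasi-likelihood model with a mean for each group covered all 15 libraries, comparisons were contrasts, and p-values were adjusted by Benjamini-Hochberg over all genes tested. A gene was called at an adjusted p under 0.05; rose and fell mean that. The comparison of library numbers added the number to the model. Intervals are 95%, and limits of 3 counts cover counting error only. No libraries of a group agreed within sampling noise. The closest pair was Het DDX41 1 and 2, at a chi-square per gene of 4.15, against 16.06 to 107.82 in the other pairs. Alternatives were DESeq2, limma-voom (limma 3.58.1), DESeq2's size factors in edgeR, no filter, fewer groups, the replicate number as a block, and leaving out each library or those numbered 3. The models were tested on simulated data.

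The members, the lists of other pathway genes and markers, and the split by library number were chosen with earlier results of these data known. All members may be named, by role; values by library are given for the core loop, Cdkn1a, members called in a comparison and the 2 of each role with the highest mean TPM; for library numbers, the 5 libraries numbered 3 are given beside the range and median of the other 10. Of other pathway genes called, up to 6 with the smallest adjusted p in a comparison are named.

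Whether a number pairs libraries was read from the correlation over genes of their deviations from group means. Every pair exceeded 0.1 for the line comparison (0.358 to 0.49), for G173R with empty vector (0.181 to 0.399) and for each pair of inserts (lowest 0.28, 0.321 and 0.287), but not for DDX41 (lowest -0.027) or R525H (0.068) with empty vector. This rests on the data and the titles' numbers alone. Promoter windows are RefSeq's on GRCm38.p6, matched by symbol.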

Additional observations from a re-analysis of the deposited data

Results flagged for a closer look

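The step of the third library, that is its difference from the other libraries of its group, was tested for a difference between the lines. For Perp this was -0.71 on the log2 scale (heterozygous minus wild-type line, SE 0.12, edgeR adjusted p = 0.0401): the third library was the highest of 3 in the wild-type line and the lowest of 3 in 4 of 4 heterozygous groups. The wild-type line has 1 library numbered 3, so the difference rests on WT empty 3, and it was 1 of 35 members tested.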

How the results depend on the processing

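No called member changed direction under any alternative; the uncalled Cdkn1a difference between the lines did (-0.16 to 0.65), as did the members' median there. Leaving out 1 library at a time gave 0 to 4 called members for Het empty against WT empty, 3 to 6 for the mean of the heterozygous groups, 0 to 3 for any difference among the 5 groups, 0 in each of the 6 vector comparisons, and 20 to 24 for the library numbers. Over all genes the same fits called 372 to 613, 698 to 1336 and 326 to 597 for the first 3 and 5008 to 6943 for the library numbers. With the replicate number as a block the counts were 6, 10 and 8 for the first 3, and 1 (Ccng1) for R525H against empty vector, whose numbers did not pass the pairing check (0.31, adjusted p = 0.0226), and 1 for R525H against G173R; the block changed no other count. Without the 5 libraries numbered 3 they were 7, 10 and 8. DESeq2 called 4 members for any difference among groups. Libraries numbered 2 against 1 gave 0. Why the counts moved was not tested.

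Over all genes the counts of 532, 1116 and 538 for the line comparison, the mean and any difference became 804, 1500 and 1153 with DESeq2, 1352, 2539 and 1762 with the block, and 1068, 2087 and 1062 without the libraries numbered 3. For R525H against empty vector and against G173R they went from 2 and 12 to 60 and 119 with DESeq2, 63 and 141 with the block, 19 and 38 without the third libraries and 0 and 0 with only those groups; without a filter the first was 5. For R525H against DDX41 0 became 35, 59 and 14. For DDX41 and G173R against empty vector DESeq2 called 3 and 3 genes, and for G173R against DDX41 4, with 1 under the block and 1 without the third libraries. With groups of 3 and group only in the model, the vector comparisons are limited to differences beyond a median half-width of 0.44 (log2). The departure of the third libraries is part of the spread behind that width.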
